A study of Homo sapiens with 60 samples.

Results

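The 47 genes described here encode the machinery that copies DNA, together with the regulators and repair factors that are transcribed with it around the passage from G1 into S phase. They and the other lists below were chosen by name and function with earlier results of these data known. The shares set beside those of all genes are therefore no independent comparison. All 47 were found among the 60675 gene identifiers of the expression table and passed the filter on low counts. Messenger RNA was sequenced from A549, a human lung adenocarcinoma cell line, 24 h after addition of herbal extracts used as tonics in Korean medicine or of vehicle (0.1% DMSO on the labels). The groups were vehicle (3 libraries), the hot-water extracts of the formulas Sibjeondaebo-tang (3 libraries per dose) and Palmul-tang (2 per dose), and the ethanol extracts of Poria Cocos, Atractylodis Rhizoma, Glycyrrhizae Radix (licorice) and Panax Ginseng (3 per dose) and of Angelicae Gigantis Radix and Paeoniae Radix (1 per dose). Doses were 20 µg/mL (low), 100 µg/mL (medium) and 500 µg/mL (high) for each extract. All 60 libraries came from this cell line, grown in medium with serum. The labels do not say whether replicates were separate cultures, so the tests weigh differences against scatter between libraries that may be technical.

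A chromosome is copied from origins that are licensed in G1, when the origin recognition complex with CDC6 and CDT1 loads the MCM2-7 helicase onto DNA. At the start of S phase CDC45, the GINS proteins and MCM10 turn the helicase on, primase and the DNA polymerases follow it, and the clamp PCNA, its RFC loader and the RPA proteins keep the fork moving. Most of these genes are transcribed in late G1 and S phase under the E2F transcription factors, so in growing cells their messenger RNA is widely used as a mark of proliferation. In bulk libraries such as these, more cells in S phase and more RNA per cell cannot be told apart.

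Library totals ran from 18602484 to 29764358 counts. The 6 epithelial markers (KRT8, KRT18, KRT19, EPCAM, CDH1 and KRT7) were present in all 60 libraries, with summed levels of 6519 to 11520 CPM (counts scaled to library size), whereas the 12 markers of blood, endothelial and stromal cells summed to 13.6 to 21.5 CPM, with PTPRC, CD3E, VWF and CDH5 at 0 in 50 to 54 libraries. Low-dose Poria replicate 3 held 28101 genes with counts, against 21744 to 23495 in the other libraries. Of the 47 genes, 21 share exon bases with another annotated gene, and the strand setting of the counting is not given in the sources used here. Among those named below, RRM2 shares 1077 bases with AC007240.1 and PRIM1 shares 362 with AC117378.1, both on the same strand. POLA2 (2012 with AP000944.2) and POLD1 (426 with AC020909.1) do so on the same strand as well. On the opposite strand TYMS shares 967 with ENOSF1, CCNE2 1629 with INTS8 and MCM7 392 with AP4M1. GINS4 (1159 with AC009630.2), MCM2 (1113 with AC023593.1) and GINS3 (558 with AC009118.2) also overlap a gene on the opposite strand. Part of their counts could belong to the neighbour.

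Promoter stretches are shown for 4 genes, each called higher in at least 3 of the 6 comparisons of high with low dose described below. E2F proteins bind DNA at sites close to TTTGGCGC, TTTCCCGC, TTTGCCGC or TTTCGCGC, and these letters were searched on either strand from 250 bases before to 50 after the RefSeq transcription start (GRCh38.p14). A window was found for 41 of the 47 genes, and CCNE2, MCM4, MCM5, RPA2, RPA3 and GINS4 had none. Some genes had several windows, and a gene was counted where any of its windows held the letters. The letters were present for 23 of the 41 genes (56.1%), for 3 of 22 mitosis genes with a window (13.6%) and for 1090 of all 27305 genes with a window (3.99%). The letters TTTGAA or TTTAAA, the core of the element that marks many mitosis genes, were present for 7 of the 41 genes (17.1%), for 19 of the 22 mitosis genes (86.4%) and for 27.9% of all genes with a window. No string of either set contains one of the other. Only genes with E2F letters could be picked for printing. RRM2, RRM1, MCM10, RFC4, CHAF1A and CHAF1B were also called higher in 3 comparisons, and their windows lacked the letters. Of the genes with a window called higher in none, E2F1, CLSPN, POLE, POLE2, POLA2 and UNG had the letters, and CCNE1 and SLBP did not. The 30 bases around the match nearest the start are printed for the 4 genes on the gene's own strand, with the matching letters in capitals. They lie at chr7:100101388-100101417 on the minus strand for MCM7, chr18:657603-657632 on the plus strand for TYMS, chr19:48170440-48170469 on the minus strand for the DNA ligase LIG1 and chr16:85688967-85688996 on the minus strand for GINS2. Each overlaps an annotated exon in GENCODE 29.
MCM7: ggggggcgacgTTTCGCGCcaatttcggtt
TYMS: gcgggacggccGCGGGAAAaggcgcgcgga
LIG1: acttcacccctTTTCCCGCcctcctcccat
GINS2: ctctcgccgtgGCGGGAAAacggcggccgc
In TYMS and GINS2 the capitals are the reverse complement of TTTCCCGC. Such matches describe the sequence and are no measure of E2F binding in these cells.

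Levels of different genes were compared as CPM per kilobase of exon, where the length merges all annotated exons of a gene. The order depends on this length: RRM2 (5323 bases) had a mean of 201 CPM and TK1 (1861 bases) of 74.3 CPM. Over all 60 libraries PCNA, the ring that tethers polymerases to DNA, was the most abundant of the 47, at 94.0 CPM per kb. It was followed by thymidine kinase TK1 (39.9), the ribonucleotide reductase subunit RRM2 (37.9) and the helicase subunit MCM7 (34.4). At the other end stood the GINS subunit GINS3 (2.39 CPM per kb) and the cyclin CCNE2 (1.11), which with CDK2 drives entry into S phase. In vehicle libraries RRM2 stood at 209, 216 and 208 CPM, MCM7 at 171, 176 and 174 CPM, E2F1 at 21.1, 24.4 and 21.9 CPM, and CCNE2 at 5.19, 5.46 and 5.22 CPM.

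Summed over the 47 genes, each higher dose had the higher level with 3 extracts. The sum went from 2025 ± 42.6 CPM at low dose through 2224 ± 42.3 to 2426 ± 15.1 CPM at high dose with Sibjeondaebo-tang (SD, n = 3 each). With Palmul-tang the sums were 2041 ± 9.90, 2205 ± 5.66 and 2430 ± 13.4 CPM (SD, n = 2 each), and with Poria 2228 ± 31.9, 2405 ± 9.61 and 2562 ± 5.03 CPM (SD, n = 3 each). Libraries of the 3 doses did not overlap in these extracts. Atractylodis went from 2126 ± 20.8 through 2154 ± 52.0 to 2220 ± 41.4 CPM and Ginseng from 2088 ± 37.1 through 2136 ± 49.1 to 2210 ± 22.5 CPM (SD, n = 3 each), smaller steps in which neighbouring doses overlapped. Licorice alone among the replicated extracts had its lowest sum at high dose: 2040 ± 40.2, 2131 ± 35.7 and 1865 ± 17.0 CPM (SD, n = 3 each). The vehicle libraries summed to 2331 ± 45.2 CPM (SD, n = 3).

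**Figure D1:**
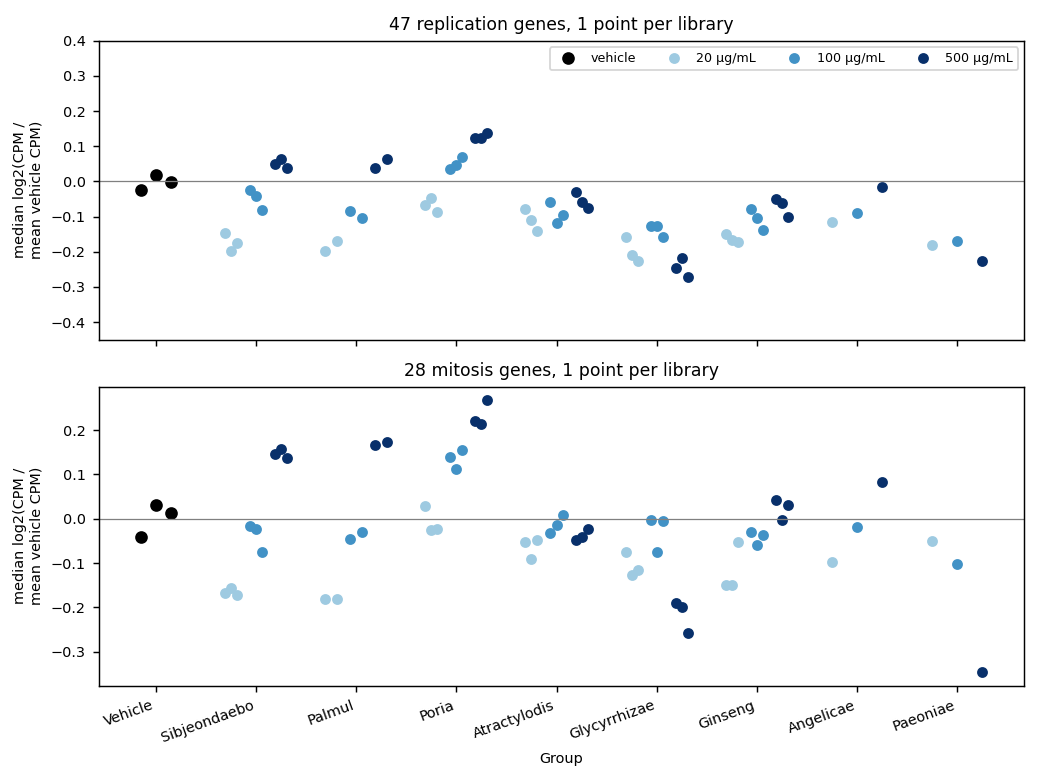
Each point is 1 library, placed by extract on the x axis and by the median, over the 47 replication genes (top) or 28 mitosis genes (bottom), of log2 of CPM over the mean vehicle CPM; black marks vehicle and darker blue a higher dose. In the top panel the high-dose Poria libraries sit at 0.12 to 0.14 and the high-dose licorice (Glycyrrhizae) libraries at −0.27 to −0.22, outside the vehicle range of −0.02 to 0.02. Low-dose groups lie outside it too. The low-dose licorice libraries, at −0.23 to −0.16, overlap the high-dose ones, and low-dose Sibjeondaebo-tang lies at −0.20 to −0.15 and low-dose Palmul-tang at −0.20 to −0.17.

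High dose was compared with low dose within each extract by edgeR's quasi-likelihood test, with adjustment over all 17764 genes tested. A gene is called higher or lower where the adjusted p was under 0.05, and changes are given as log2 change ± standard error. With Sibjeondaebo-tang 30 of the 47 were higher and 0 lower, with a median log2 change of 0.25, where 2.35% of all genes tested were higher and 1.44% lower and the median of all genes was 0.00. With Palmul-tang 22 were higher and 0 lower (median 0.28; 1.29% and 0.794% of all genes), and with Poria 19 were higher and 0 lower (median 0.19; 1.06% and 0.484%). In these 3 extracts 0 members were lower at an unadjusted p under 0.05 as well, and DESeq2 called 31, 25 and 22 higher and 0 lower. With Atractylodis 0 were higher and 0 lower (median 0.07; 0.113% and 0.0957%), and with Ginseng 0 and 0 (median 0.09; 0.552% and 0.653%). With licorice 4 were higher and 12 lower (median −0.05), against 18.5% and 18.4% of all genes, so the share of the 47 called higher lay below that of all genes and the share called lower above it.

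**Figure D2:**
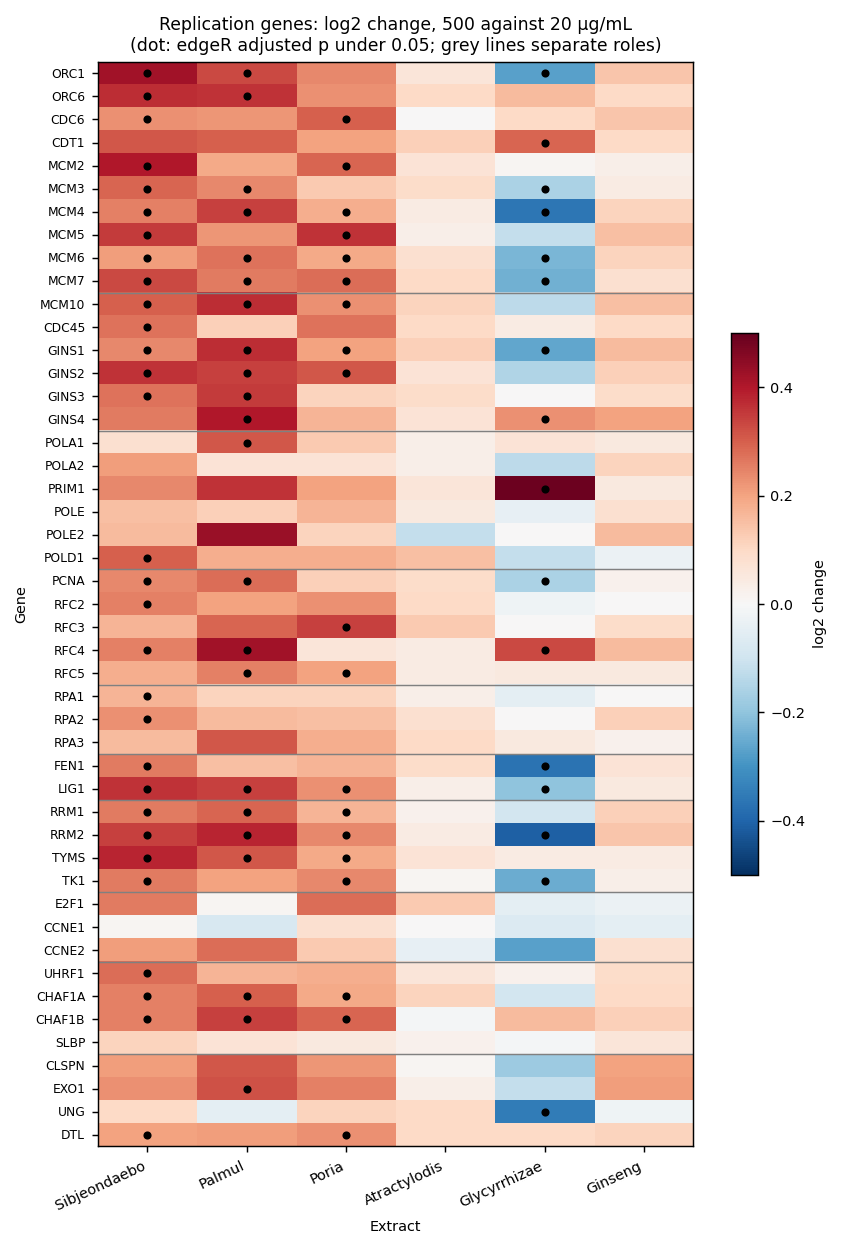
Colour gives the log2 change of each of the 47 genes (rows, grouped by role) between 500 and 20 µg/mL for each replicated extract (columns), red for higher and blue for lower at high dose, and a dot marks an edgeR adjusted p under 0.05. Dots stand in 30 cells of the Sibjeondaebo-tang column, 22 of Palmul-tang and 19 of Poria, all red, while the licorice (Glycyrrhizae) column has 12 blue and 4 red cells with dots.

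With Sibjeondaebo-tang 9 of the 10 origin licensing genes were higher, all but CDT1. RRM2 (chr2:10120698-10131419, plus strand, in GENCODE 29 on GRCh38), the regulatory subunit of the enzyme that makes deoxynucleotides, was the most firmly called, at 181, 186 and 186 CPM at low dose, 218, 209 and 209 CPM at medium dose and 235, 234 and 228 CPM at high dose. Every high-dose library lay above every low-dose one, a log2 change of 0.34 ± 0.04 (edgeR adjusted p = 3.85e-07). MCM7 stood at 142, 132 and 137 CPM at low dose, 157, 155 and 152 CPM at medium and 166, 175 and 175 CPM at high dose (0.33 ± 0.04, edgeR adjusted p = 5.5e-07). TYMS, which makes thymidylate, stood at 46.1, 41.5 and 43.0 CPM, then 51.4, 49.9 and 44.6 CPM, then 56.9, 57.3 and 55.8 CPM (0.38 ± 0.05, edgeR adjusted p = 1.64e-06). For both the high-dose libraries lay clear of the low-dose ones.

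Around these, the 4 nucleotide supply genes (RRM1, RRM2, TYMS and TK1) were all higher, as were both lagging-strand maturation enzymes, the flap nuclease FEN1 (0.26 ± 0.06) and the ligase LIG1 (0.36 ± 0.05). Of the 6 helicase activation genes 5 were higher, among them GINS2 (0.36 ± 0.07), and the exception was GINS4 (0.26 ± 0.09, adjusted p = 0.0817). The largest changes belonged to ORC1, a subunit of the origin recognition complex (18.4 ± 0.457 to 24.6 ± 1.36 CPM, SD, n = 3; 0.42 ± 0.07), and MCM2 (51.6 ± 3.35 to 67.9 ± 1.99 CPM; 0.40 ± 0.06). MCM5 rose from 68.7, 61.9 and 65.9 CPM to 85.1, 78.7 and 85.9 CPM, CDC6 from 50.02, 46.6 and 46.9 CPM to 59.3, 54.8 and 53.9 CPM, and PCNA from 139, 125 and 126 CPM to 151, 155 and 155 CPM. Of the 6 primase and polymerase genes POLD1, the catalytic subunit of polymerase delta, was called (0.30 ± 0.06), and the 6 had a median of 0.18. Neither E2F1 (0.26 ± 0.08, adjusted p = 0.0635) nor the cyclins CCNE1 (0.01 ± 0.08) and CCNE2 (0.21 ± 0.13) passed the test. Of the 47 genes, 40 had all high-dose libraries above all low-dose ones (10.1% of all genes did), and in 45 the group means stood in the order low, medium, high (23.4% of all genes).

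**Figure D3:**
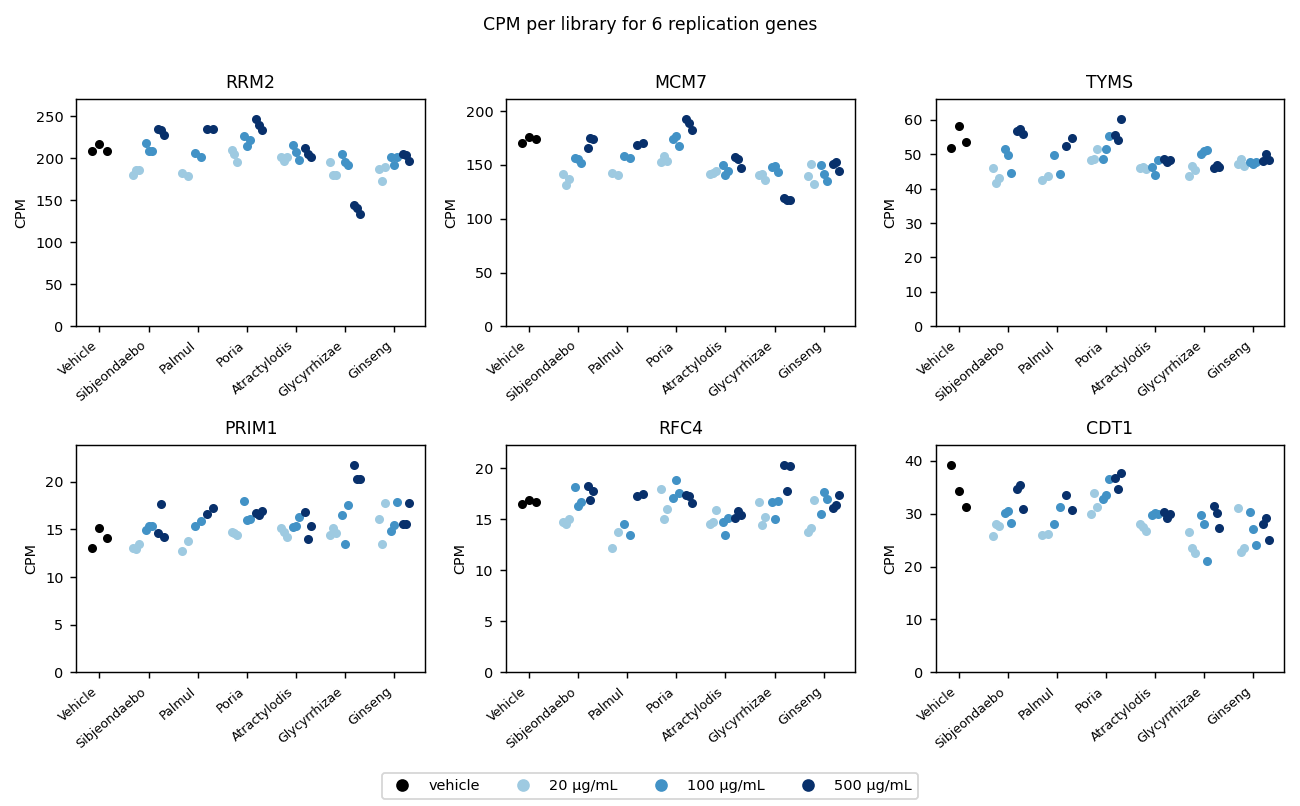
CPM of 6 genes in every library of vehicle and the 6 replicated extracts (1 point per library, y axis from 0, darker blue for a higher dose). RRM2 at high dose lies at 228 to 235 CPM with Sibjeondaebo-tang and at 134 to 144 CPM with licorice (Glycyrrhizae), while PRIM1 and RFC4 have their highest licorice libraries at high dose.

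Palmul-tang, with 2 libraries per dose, gave a median log2 change of 0.28 over the 47, beside 0.25 with Sibjeondaebo-tang. RRM2 stood at 182 and 179 CPM at low dose, 207 and 202 CPM at medium and 235 and 235 CPM at high dose (0.38 ± 0.05, edgeR adjusted p = 2.69e-06). MCM4 went from 139 and 128 CPM through 145 and 148 CPM to 171 and 167 CPM (0.34 ± 0.04, edgeR adjusted p = 5.1e-06), and RRM1, the catalytic subunit of ribonucleotide reductase, from 97.03 and 101 CPM through 105 and 107 CPM to 123 and 119 CPM (0.29 ± 0.04, edgeR adjusted p = 4.46e-05). In all 3 genes the doses did not overlap. By role, 6 of 10 licensing genes, 5 of 6 helicase activation genes, 3 of 5 clamp and loader genes, 3 of 4 nucleotide supply genes and 2 of 4 chromatin genes, the CAF-1 subunits CHAF1A (0.30 ± 0.06) and CHAF1B (0.34 ± 0.09), were higher. Genes called with Palmul-tang and not with Sibjeondaebo-tang were GINS4 (0.40 ± 0.10), POLA1, the polymerase alpha catalytic subunit (0.31 ± 0.06), the clamp loader subunit RFC5 (0.25 ± 0.07) and the exonuclease EXO1 (0.32 ± 0.09), a contrast that the test of the difference did not carry (given with the tests between extracts). PCNA rose from 129 and 130 CPM to 150 and 164 CPM. MCM5 (66.3 and 67.0 against 78.9 and 76.6 CPM, adjusted p = 0.0638) and CDC6 (46.7 and 49.7 against 58.3 and 53.9 CPM, adjusted p = 0.0505) had libraries that did not overlap and were not called. E2F1 was level (19.1 and 17.9 against 18.1 and 19.2 CPM), and CCNE2 overlapped (3.70 and 3.95 against 3.69 and 5.54 CPM). Dose means stood in the order low, medium, high for 42 of the 47 (21.5% of all genes), and high-dose libraries lay above low-dose ones for 42 (22.3%). Leaving out low-dose replicate 2 brought the count from 22 to 8, leaving out high-dose replicate 3 to 10 and leaving out low-dose replicate 3 to 11. The spread of a group reduced to 1 library was then taken from the remaining groups.

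With Poria 6 of 10 licensing genes (CDC6 and all of MCM2-7 except MCM3) and 4 of 4 nucleotide supply genes were higher. MCM7 led, with 153, 159 and 154 CPM at low dose, 174, 177 and 168 CPM at medium and 192, 189 and 183 CPM at high dose (0.28 ± 0.04, edgeR adjusted p = 1.7e-05). MCM5 stood at 68.2, 71.5 and 72.6 CPM, then 81.3, 82.3 and 75.8 CPM, then 89.9, 91.1 and 91.0 CPM (0.36 ± 0.05, edgeR adjusted p = 4.7e-05). CDC6, which helps load the helicase, stood at 52.0, 50.8 and 46.8 CPM, then 57.0, 52.3 and 55.4 CPM, then 63.3, 61.5 and 59.97 CPM (0.30 ± 0.05, edgeR adjusted p = 0.000179). In each of these genes the libraries of the 3 doses did not overlap.

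RRM2 rose from 210, 205 and 195 CPM to 246, 240 and 233 CPM with Poria (0.24 ± 0.04), and GINS2 by 0.31 ± 0.06. None of the 6 primase and polymerase genes was called, with a median of 0.15. PCNA was higher in every high-dose library (155, 153 and 160 CPM) than in every low-dose one (149, 142 and 140 CPM) but was not called (0.12 ± 0.05, adjusted p = 0.256), and E2F1 (18.1, 18.1 and 18.1 against 22.3, 21.8 and 22.0 CPM; 0.28 ± 0.08, adjusted p = 0.052) lay just outside the threshold. CCNE2 overlapped (4.87, 5.85 and 4.33 against 5.12, 5.85 and 5.57 CPM). High-dose libraries lay above low-dose ones for 33 of the 47 (9.94% of all genes), and dose means stood in rising order for 40 (22.1%). Without low-dose replicate 3, the library with many extra genes, 13 were called higher. Leaving out high-dose replicate 1 gave 11 and leaving out low-dose replicate 2 gave 12. The count was 10 with no filter on low counts and 7 when only the 6 compared libraries were fitted.

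The 3 extracts with many calls share no library in these comparisons. All were tested in 1 fit with a shared estimate of spread, so their calls are not independent of each other. Of the 47 genes, 12 were called higher in all 3: the helicase subunits MCM4, MCM6 and MCM7, the helicase activators MCM10, GINS1 and GINS2, LIG1, RRM1, RRM2, TYMS and both CAF-1 subunits. Sibjeondaebo-tang and Palmul-tang shared 18 genes (of 30 and of 22), Sibjeondaebo-tang and Poria 17 (of 30 and of 19), and Palmul-tang and Poria 13 (of 22 and of 19). At least 1 of the 3 called 35 of the 47. Such overlaps were not counted over all genes, so no background share stands beside them. The 12 called in none were CDT1, POLA2, PRIM1, POLE, POLE2, RPA3, E2F1, CCNE1, CCNE2, the histone messenger RNA binding protein SLBP, the checkpoint protein CLSPN and UNG. Under every alternative fit and every library left out, 18 of the 30 genes were still called with Sibjeondaebo-tang, 7 of the 22 with Palmul-tang (MCM4, MCM6, MCM7, GINS1, LIG1, RRM1 and RRM2) and 5 of the 19 with Poria (CDC6, MCM2, MCM5, MCM7 and RRM2).

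Atractylodis and Ginseng had 0 members called in either direction by edgeR. At an unadjusted p under 0.05, 4 of the 47 passed with Atractylodis and 15 with Ginseng, and DESeq2 called 0 and 1. RRM2 stood at 202, 197 and 202 CPM at low and 213, 205 and 201 CPM at high dose with Atractylodis (0.04, approximate 95% interval −0.03 to 0.12), overlapping doses. With Ginseng RRM2 stood at 187, 173 and 190 CPM at low and 205, 204 and 197 CPM at high dose (0.14, interval 0.06 to 0.22; adjusted p = 0.071), with no overlap. MCM5 was 64.8, 68.6 and 71.2 against 72.5, 70.2 and 66.9 CPM with Atractylodis (0.03 ± 0.05) and 66.7, 63.4 and 59.3 against 70.3, 72.0 and 67.6 CPM with Ginseng (0.15 ± 0.05, adjusted p = 0.235). PCNA was 138, 126 and 132 against 138, 142 and 141 CPM with Atractylodis and 140, 134 and 136 against 138, 142 and 137 CPM with Ginseng. CDC6 was level with Atractylodis (0.00, interval −0.10 to 0.10) and 0.14 ± 0.05 with Ginseng. The log2 change was above 0 for 44 of 47 genes with Atractylodis and 42 of 47 with Ginseng, and high-dose libraries lay above all low-dose ones for 15 genes in each (7.04% and 6.73% of all genes).

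With licorice the replication genes were called in both directions, as were all genes (18.5% higher and 18.4% lower). The helicase subunits MCM3, MCM4, MCM6 and MCM7, ORC1, GINS1, PCNA, FEN1, LIG1, RRM2, TK1 and the uracil glycosylase UNG were lower at high dose, while CDT1, GINS4, PRIM1 and RFC4 were higher. RRM2 stood at 195, 180 and 180 CPM at low dose, 205, 196 and 192 CPM at medium and 144, 141 and 134 CPM at high dose (−0.41 ± 0.04, edgeR adjusted p = 9.5e-12). MCM4 stood at 135, 130 and 132 CPM, then 135, 141 and 136 CPM, then 107, 101 and 101 CPM (−0.36 ± 0.04, edgeR adjusted p = 3.01e-11), and FEN1 at 54.5, 59.9 and 53.8 CPM, then 55.4, 59.9 and 56.2 CPM, then 45.3, 40.4 and 44.3 CPM (−0.37 ± 0.06, edgeR adjusted p = 7.45e-07). In these 3 genes all high-dose libraries lay below all others, and the medium-dose mean did not lie between those of low and high dose.

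Among the genes higher with licorice, PRIM1 (chr12:56731596-56752373, minus strand), the subunit of primase that makes the RNA primer, stood at 14.4, 15.2 and 14.7 CPM at low dose, 16.6, 13.4 and 17.6 CPM at medium and 21.7, 20.4 and 20.3 CPM at high dose (0.49 ± 0.08, edgeR adjusted p = 3.53e-06). The clamp loader subunit RFC4 stood at 16.7, 14.5 and 15.2 CPM at low and 20.3, 17.8 and 20.3 CPM at high dose (0.33 ± 0.07, edgeR adjusted p = 0.000121). Both sets of high-dose libraries lay above the low-dose ones. The licensing factor CDT1 went from 26.5, 23.5 and 22.6 CPM to 31.4, 30.03 and 27.2 CPM (0.29 ± 0.10), while GINS4, at 13.6, 16.9 and 12.5 against 15.8, 17.8 and 16.7 CPM, overlapped (0.23 ± 0.08). Subunits of the same complex had different values, with no test between them: of the GINS proteins GINS1 fell (−0.26 ± 0.05) and GINS3 was level (0.00 ± 0.08), and of the loader subunits RFC3 was level (0.00 ± 0.09) beside RFC4. PCNA fell from 127, 129 and 121 CPM to 115, 111 and 112 CPM (−0.16 ± 0.05), whereas MCM5 (66.3, 61.4 and 61.4 against 59.7, 56.9 and 56.8 CPM, adjusted p = 0.067), CDC6 (49.6, 44.4 and 51.7 against 52.1, 53.2 and 51.3 CPM), E2F1 (16.3, 17.5 and 16.4 against 15.7, 16.3 and 16.5 CPM) and CCNE2 (4.72, 4.17 and 3.38 against 3.64, 2.83 and 3.61 CPM) were not called. Dose means stood in rising order for 9 of the 47 (22.2% of all genes) and in falling order for 2 (22.9%). Of the 16 calls, 12 were made again under every alternative fit and every library left out, among them PRIM1, RFC4, RRM2 and MCM4 but not CDT1 or GINS4. Leaving out single libraries by itself gave the same 12, while fitting only the compared groups kept 15 and DESeq2 kept 16. Of its 12 genes called lower, 11 were higher with at least 1 of Sibjeondaebo-tang, Palmul-tang and Poria, and UNG with none. Of all 47 genes, 35 were higher with at least 1 of these 3, and the overlap was not counted over all genes. In the same comparison 5 of the 6 epithelial markers were lower, among them KRT8 (−0.78 ± 0.05) and KRT18 (−0.58 ± 0.05), and the 6 summed to 6519 to 7001 CPM at high against 8897 to 9372 CPM at low dose. The part of this marker difference in the replication gene result was not tested.

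**Figure D4:**
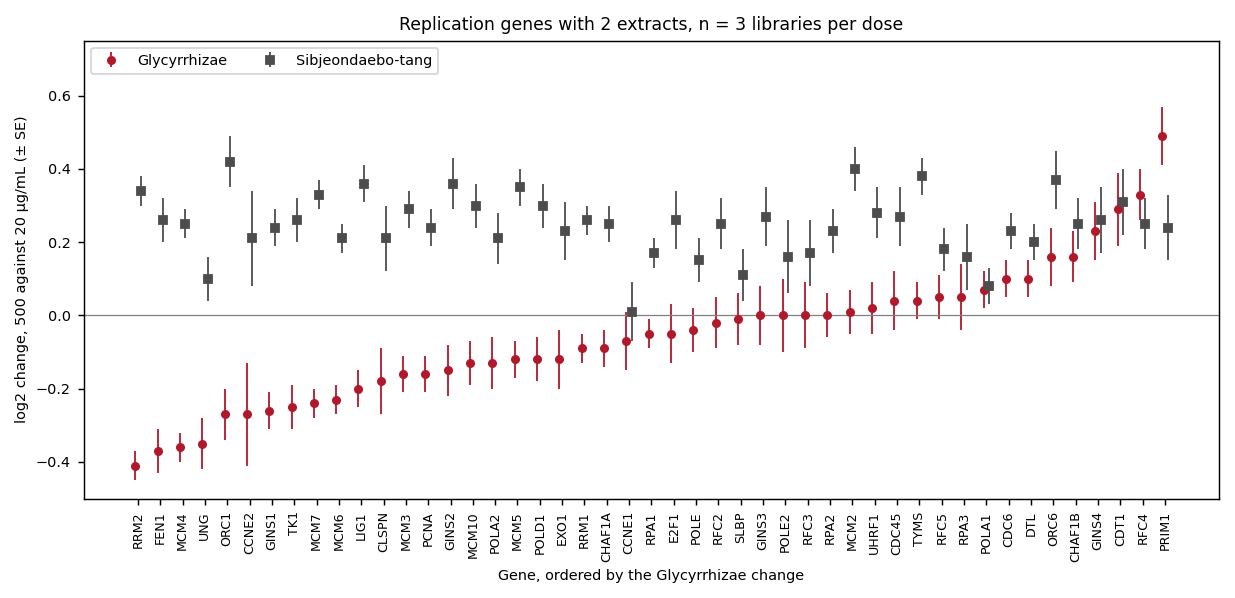
Points give the log2 change between 500 and 20 µg/mL (y axis) with its standard error for each of the 47 genes (x axis, ordered by the licorice change), circles for licorice (Glycyrrhizae) and squares for Sibjeondaebo-tang. The circles run from −0.41 at RRM2 to 0.49 at PRIM1, whereas the squares run from 0.01 at CCNE1 to 0.42 at ORC1.

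Whether extracts differed in their dose change was tested as an interaction in the same edgeR model. The signed log2 change from low to high dose was below that of Sibjeondaebo-tang with licorice for 26 of the 47 and above it for 0 (13.1% and 11.3% of all genes), where 1 was above it at an unadjusted p under 0.05 and DESeq2 called 0 above. The most firmly called were RRM2 (−0.41 with licorice and 0.34 with Sibjeondaebo-tang, a difference of −0.74 ± 0.06, adjusted p = 9.75e-15), MCM4 (−0.62 ± 0.05) and MCM7 (−0.57 ± 0.06). Against Ginseng, whose samples carry the same set code as licorice in the labels, the signed change with licorice was lower for 18 and higher for 1 (11.3% and 9.72% of all genes): RRM2, at −0.41 with licorice and 0.14 with Ginseng, differed by −0.55 ± 0.06 (adjusted p = 1.12e-10), MCM4 by −0.47 ± 0.05 and PRIM1, the 1 in the other direction, by 0.44 ± 0.12 (adjusted p = 0.0044). Sibjeondaebo-tang and Palmul-tang differed in 0 of the 47 and in 0% of all genes by edgeR. For the 47 their difference had a median of 0.00 and a range of −0.27 to 0.25, 2 members had an unadjusted p under 0.05, and DESeq2 also called 0. Poria and Atractylodis differed in 0 of the 47 by edgeR (0.0563% of all genes higher and 0.0169% lower), although the Poria change was the higher for all 47, with a median difference of 0.13. There 13 members had an unadjusted p under 0.05 and DESeq2 called 3.

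At medium dose the changes from low dose were smaller. RRM2 with Sibjeondaebo-tang was the only member called (0.20 ± 0.04, edgeR adjusted p = 0.0281; 0.0507% of all genes were higher), and it was not called when any 1 of the 6 compared libraries was left out. The median over the 47 was 0.14 with Sibjeondaebo-tang, 0.12 with Palmul-tang, 0.11 with Poria, 0.06 with licorice, 0.03 with Ginseng and 0.02 with Atractylodis. In the other 5 extracts 0 members were called by edgeR (0.18% of all genes were higher and 0.608% lower with licorice, and 0% in the remaining 4), with 14, 21, 8, 3 and 1 at an unadjusted p under 0.05 for Palmul-tang, Poria, licorice, Ginseng and Atractylodis, and DESeq2 called 1 with Palmul-tang and 0 in the other 4. With licorice the fitted log2 change was above 0 for 42 of the 47, against 49.3% of all genes.

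Measured against vehicle, the mean summed level of the 47 genes was lower in each low-dose group. Members called lower at low dose numbered 25 with Sibjeondaebo-tang, 22 with Palmul-tang, 10 with Poria, 17 with Atractylodis, 26 with licorice and 21 with Ginseng, against 11.5%, 6.72%, 8.65%, 11%, 14.2% and 14.2% of all genes. Called higher were 1, 0, 1, 2, 0 and 0 in the same order, against 12.6%, 8.73%, 10.9%, 12.7%, 14.6% and 14.6% of all genes. MCM7 stood at −0.35, −0.30, −0.16, −0.28, −0.32 and −0.30 across these extracts, with standard errors of 0.04, and TK1 at −0.46, −0.45, −0.37, −0.37, −0.42 and −0.41 with standard errors of 0.06. POLA1 lay on the other side, at 0.19 ± 0.05 with Sibjeondaebo-tang, 0.21 ± 0.05 with Poria and 0.18 ± 0.05 with Atractylodis, where it was called higher. Where 0 were higher, in Palmul-tang, licorice and Ginseng, 0, 1 and 1 were higher at an unadjusted p under 0.05 and DESeq2 called 0. In the same comparisons 4, 3, 2, 4, 4 and 4 of the 6 epithelial markers were called lower and 1 higher in each. These markers summed to 11050 to 11520 CPM in vehicle and 8799 to 10319 CPM in the low-dose groups of these 6 extracts, and the part of this difference in the replication gene result was not tested. All of these comparisons use the same 3 vehicle libraries, and vehicle samples carry a set code of their own in the labels, so set and treatment cannot be told apart. They also move with base composition: with low-dose Sibjeondaebo-tang the median of all genes was 0.12 in the third of genes with the lowest GC content and −0.14 in the third with the highest, where the members had −0.10 and −0.34. Over the 12 comparisons with vehicle the low-GC median of all genes ran from 0.10 to 0.18 and the high-GC median from −0.19 to −0.11, whereas in the 6 high against low comparisons neither was beyond 0.05 in size.

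At high dose the members stood on both sides of the vehicle. With Poria 19 were higher and 0 lower (9.89% and 6.41% of all genes), led by MCM4 (0.25 ± 0.04, edgeR adjusted p = 3.69e-06) and POLA1 (0.34 ± 0.05). Palmul-tang had 12 higher and 2 lower (12.2% and 10%), the latter TK1 and E2F1 (−0.27 ± 0.09), and Sibjeondaebo-tang 9 higher and 1 lower, TK1 (9.04% and 6.12%). With Atractylodis 3 were higher (GINS1, POLA1 and CLSPN) and 10 lower (13.8% and 12.3%), and with Ginseng 4 were higher (GINS1, RRM1, POLA1 and CLSPN) and 12 lower (15.2% and 13.7%). Licorice had 31 lower and 3 higher (23.5% and 23.3%): RRM2 at −0.60 ± 0.04, MCM7 at −0.56 ± 0.04, TK1 at −0.67 ± 0.06 and CCNE2 at −0.65 ± 0.14 were among those that fell, and PRIM1 (0.56 ± 0.09), POLA1 and RFC4 rose. With Poria 1 member was lower at an unadjusted p under 0.05, and DESeq2 called 0 lower. The 2 sides also differed in base composition. Members called higher and lower had median GC contents of 43.5% and 62.8% with Sibjeondaebo-tang and 43.4% and 62.7% with Palmul-tang. These were 42.9% and 53.4% with Atractylodis, 42.9% and 51.4% with licorice and 43.2% and 57.3% with Ginseng. With Poria the higher ones had 44.5% and those not called 51.1%. The part of base composition in these calls was not tested.

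Single libraries moved several of these counts against vehicle. Without vehicle replicate 2 the lower genes numbered 6 instead of 10 with high-dose Atractylodis, 0 instead of 1 with high-dose Sibjeondaebo-tang, 1 instead of 2 with high-dose Palmul-tang and 4 instead of 10 with low-dose Poria. Without vehicle replicate 1 the genes higher with Ginseng at high dose numbered 2 instead of 4. Without high-dose replicate 3 Palmul-tang had 6 higher instead of 12 and 1 lower instead of 2, and without high-dose replicate 2 it also had 1 lower. At low dose Palmul-tang had 14 lower without its replicate 2 and 10 without its replicate 3 instead of 22, and the 2 higher with Atractylodis became 1 without vehicle replicate 1 and 0 without vehicle replicate 2 or low-dose replicate 1. For Sibjeondaebo-tang at high dose the 9 higher became 5 with no filter and 3 when the fit held only the compared libraries, and that last fit gave 13 instead of 21 lower with low-dose Ginseng.

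The 2 extracts with 1 library per dose allow no test. With Angelicae Gigantis Radix, 39 of the 47 genes were above 0 in high against low dose on the log2(CPM + 1) scale, with a median of 0.11, and only EXO1 (0.40) was past a 25% difference between the higher and the lower value, where 2.98% of all genes passed it upward and 3.69% downward. RRM2 was 191, 206 and 211 CPM and MCM5 63.0, 66.9 and 72.7 CPM at low, medium and high dose. With Paeoniae Radix 5 members were past that limit upward and 12 downward, against 22.2% and 21.5% of all genes, with a median of −0.12. CDT1 (1.01), TK1 (0.63), RPA3 (0.45), E2F1 (0.43) and TYMS (0.36) were the 5 upward. POLA1 (−0.84), POLE2 (−0.83), UHRF1 (−0.69), MCM6 (−0.61) and MCM4 (−0.58; 141, 134 and 93.8 CPM) were the farthest downward. E2F1 was 14.9, 16.1 and 20.4 CPM and RRM2 206, 203 and 165 CPM across the doses. The 6 epithelial markers summed to 8726, 9170 and 6855 CPM at low, medium and high dose of Paeoniae Radix, and mitochondrial genes took 20.8%, 15.5% and 18.3% of the counts, the first being the highest share of the 60 libraries. Their part in these differences was not tested.

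Genes around the replication machinery were read from lists of names, beside the shares of all genes given above (2.35%, 1.29% and 1.06% higher with Sibjeondaebo-tang, Palmul-tang and Poria, and 18.5% higher and 18.4% lower with licorice). The 28 mitosis genes, which act later in the cycle, served as one such list: 24 were higher with Sibjeondaebo-tang, 26 with Palmul-tang, 17 with Poria, 0 with Atractylodis and 5 with Ginseng, and with licorice 3 were higher and 12 lower. Of 41 further replication genes 15, 11 and 6 were higher with Sibjeondaebo-tang, Palmul-tang and Poria and 0 lower, among them the fork protein TIMELESS (0.27 ± 0.05 with Sibjeondaebo-tang). With licorice, where the background is high, 11 were higher and 7 lower: TIPIN, the partner of TIMELESS, rose (0.42 ± 0.06), and the licensing inhibitor GMNN fell (−0.31 ± 0.05). Of 22 G1/S control genes tested, 3, 3 and 1 were higher with the 3 extracts, MYBL2 in each (0.34 ± 0.06 with Sibjeondaebo-tang). With licorice 4 were higher and 6 lower, including the CDK inhibitors CDKN1A (0.81 ± 0.05), which rose, and CDKN1C (−1.86 ± 0.13), which fell. Of 15 homologous recombination and mismatch repair genes 8, 5 and 4 were higher with the 3 extracts, such as RAD54L (0.51 ± 0.07 with Sibjeondaebo-tang), and with licorice 6 were higher and 0 lower, such as BRCA1 (0.31 ± 0.05).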

How the data were processed

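Messenger RNA sequencing of 60 A549 libraries in 25 groups was read from the deposited table, which holds expected counts per Ensembl gene that the authors made before deposit. The submitters' processing notes name FastQC 0.11.9, Trim Galore 0.6.5, STAR 2.7.3a, RSEM 1.3.3 and the build GRCh38. The strand of the counting is not given in the sources used here, nor is the gene annotation. A further 210 columns of the table match no sample of this series and were not used. Groups, doses and replicate numbers came from the labels. The labels give 0.1% DMSO for vehicle and the design text 2%. The design text also names a positive control, not analysed here, and lower doses for more toxic extracts, while the labels give 20, 100 and 500 µg/mL throughout. Every title names the same batch, and sample codes fall into sets that hold all doses of an extract.

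Counts were rounded to whole numbers and tested with edgeR 4.0.16 in R 4.3.3 (filterByExpr, TMM scaling, quasi-likelihood test, 1 mean per group over all 60 libraries, Benjamini-Hochberg adjustment over 17764 genes, threshold 0.05). DESeq2 1.42.0, DESeq2's size factors in edgeR, no filter, only the compared groups, each library left out and a replicate block were alternatives. Levels are TMM-scaled CPM, and extracts with 1 library per dose were compared on log2(CPM + 1) with no test. The fit was tested on simulated data. Library pairs within a group differed by 2.72 to 40.3 times the sampling noise (chi-square per degree of freedom), so none was counted as a repeat. Intervals are approximate 95% intervals from the standard error. Gene positions and exon lengths are from GENCODE 29.

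The 47 genes and all lists were chosen with earlier results of these data known. Values in every library are given for the 3 most firmly called genes of the main direction and the 2 of the other in each comparison of high with low dose, and for PCNA, MCM5, CDC6, RRM2, E2F1 and CCNE2. Genes of other lists are the 3 most firmly called.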

Additional observations from a re-analysis of the deposited data

Results flagged for a closer look

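Some dose changes differed between extracts by the interaction test in edgeR. Between licorice and Ginseng, 18 of the 47 replication genes had a lower signed log2 change from low to high dose with licorice, and 1 had a higher one. RRM2 changed by −0.41 with licorice and 0.14 with Ginseng, a difference of −0.55, and for PRIM1 the difference was 0.44. Between licorice and Sibjeondaebo-tang, 26 had a lower signed change with licorice. For RRM2, at −0.41 and 0.34, the difference was −0.74. Groups of 1 to 3 libraries are too small for the check on single outlying libraries.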

How the results depend on the processing

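No result changed direction under any alternative. Single calls among the 47 genes were made again in 3590 of the recomputed cases and not in 604. Of the counts of called genes, 58 of 60 stayed within 1.5 times with DESeq2's size factors in edgeR, 54 of 60 with no filter, 51 of 56 with only the compared groups, 51 of 56 with the replicate block and 52 of 56 with DESeq2. Those that did not are given with the reported count in brackets. With no filter on low counts, 10 were higher with Poria in high against low dose (19), against vehicle 5 with high-dose Sibjeondaebo-tang (9), 2 with high-dose Ginseng (4), 0 with low-dose Sibjeondaebo-tang (1) and 1 with low-dose Atractylodis (2), and the Poria change exceeded the Atractylodis one for 1 (0). With only the compared groups, Poria had 7 (19), medium-dose Sibjeondaebo-tang 0 (1), Sibjeondaebo-tang at high dose against vehicle 3 (9), low-dose Atractylodis 1 higher (2) and low-dose Ginseng 13 lower (21). DESeq2 called 1 with Ginseng in high against low dose (0), 2 with medium-dose Sibjeondaebo-tang (1), 1 with medium-dose Palmul-tang (0) and 3 for Poria over Atractylodis (0). DESeq2's size factors in edgeR gave 2 with medium-dose Sibjeondaebo-tang (1) and 1 higher with low-dose Ginseng against vehicle (0). The cause of these moves was not tested.

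With the replicate block, Ginseng had 2 genes higher in high against low dose (0), medium-dose Sibjeondaebo-tang 3 (1), medium-dose licorice 1 (0), low-dose Ginseng against vehicle 1 (0) and Poria over Atractylodis 2 (0); Sibjeondaebo-tang had 35 (30), Palmul-tang 27 (22) and Poria 26 (19). Same-numbered libraries did not deviate together throughout: the correlation of their deviations was over 0.1 for 36 of 45 pairs in the code set of licorice and Ginseng, 22 of 45 in that of Poria and Atractylodis, 6 of 33 in that of the formulas and 8 of 51 pairs with vehicle. In the first 2 sets 17 of 18 libraries correlated best with their own number, and 9 of 15 in the third. In the code set of licorice and Ginseng the median correlation was 0.20 for same-numbered pairs and −0.12 for the others. As not all same-numbered pairs passed 0.1, the numbers were not taken to pair the samples, and the main tests make no allowance for sharing by number.

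Leaving out 1 library in turn gave these ranges of members higher in high against low dose: 22 to 27 with Sibjeondaebo-tang, 8 to 15 with Palmul-tang, 11 to 14 with Poria, 0 to 1 with Ginseng and, with licorice, 3 to 4 higher and 11 to 15 lower. In medium against low dose they were 0 to 0 with Sibjeondaebo-tang and 0 to 1 with Poria. Against vehicle at high dose they were 6 to 8 higher and 0 to 1 lower with Sibjeondaebo-tang, 6 to 12 and 1 to 2 with Palmul-tang, 14 to 16 and 0 to 1 with Poria, 2 to 3 and 6 to 10 with Atractylodis, 2 to 3 and 26 to 31 with licorice, and 2 to 5 and 8 to 12 with Ginseng. Against vehicle at low dose the lower genes numbered 21 to 25, 10 to 20, 4 to 10, 13 to 17, 21 to 26 and 16 to 22 in the same order of extracts, and the higher ones 0 to 2 with Atractylodis and 0 to 1 with licorice and Ginseng. The Poria change exceeded that of Atractylodis for 0 to 1, the licorice change was below that of Ginseng for 13 to 18, and against Sibjeondaebo-tang it was below for 23 to 28 and above for 0 to 1.

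The extracts with 1 library per dose carry no error estimate. Pseudocounts of 0.5 and 5 CPM gave 13 and 9 genes past the limit downward with Paeoniae Radix (12).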
